A study of Mus musculus with 4 samples.

Results

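The 37 genes described here are markers of macrophages and other myeloid cells, taken by gene symbol from a list of names, and all 37 were found among the 23482 genes of the table. RNA was sequenced from whole quadriceps muscle of FVB/N mice aged 6 to 8 weeks, in 2 libraries from mice carrying a Thbs1 transgene and overexpressing it (transgenic 1 and 2) and 2 libraries from non-transgenic mice of the same strain and age (control 1 and 2). Thbs1 encodes thrombospondin-1, a secreted matricellular glycoprotein, and the comparison asks which muscle transcripts change when it is overexpressed. The labels name neither the promoter that drives the transgene nor the sex of the mice, and do not say whether animals were pooled. Whether both libraries of a genotype came from different mice is also not stated. Each p-value sets the difference between groups against the spread within groups, and that spread may be technical.

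Macrophages are phagocytes that live in every tissue. In skeletal muscle, resident macrophages lie in the connective tissue around fibres and vessels, and monocytes that enter from the blood after injury become macrophages that clear debris and later release factors acting on muscle progenitors and fibroblasts. Their genes fall into classes by role: receptors for growth factors and chemokines that keep or recruit the cells, Fc receptors and their signalling adaptors, scavenger receptors that bind debris, lysosomal and antimicrobial proteins, and the oxidase that makes superoxide. LYVE1, FOLR2, the mannose receptor CD206 (Mrc1) and CD163 are commonly used to mark resident macrophages, while CCR2 marks cells derived from monocytes and TREM2, GPNMB and galectin-3 (Lgals3) mark phagocytic, lipid-handling cells.

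Thbs1 itself followed the labels, with 12900 and 15411 RPKM in the transgenic libraries, against 8.61 and 12.2 RPKM in the controls. RPKM is the number of reads of a gene, scaled by the length of its gene model and by the reads of the library. Reads in genes numbered 20053685 and 19813029 in the transgenic libraries and 19380650 and 18815221 in the controls, and Thbs1 alone took 12% and 14.4% of the transgenic reads, against 0.00802% and 0.0114% of the control reads. The 37 markers together held 0.0680% and 0.0623% of the reads in transgenic muscle and 0.0233% and 0.0156% in control muscle. Control 2 was lower than control 1 for 28 of the 37 markers, beside 63.2% of all genes, and counts of changed markers are therefore given with and without it.

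The sequences upstream of 4 of the markers are shown because these genes are the ends of the contrast described further on: Trem2 and Gpnmb from the phagocytic set, Mrc1 and Cd163 from the resident set. Each runs 5′ to 3′ over the 250 bases before the RefSeq start site on GRCm38.p6, and capitals mark GAGGAA or its reverse complement TTCCTC, the purine-rich core of the sites bound by PU.1, the transcription factor (Spi1) that specifies myeloid cells.
Trem2, chr17:48346151-48346400, plus strand: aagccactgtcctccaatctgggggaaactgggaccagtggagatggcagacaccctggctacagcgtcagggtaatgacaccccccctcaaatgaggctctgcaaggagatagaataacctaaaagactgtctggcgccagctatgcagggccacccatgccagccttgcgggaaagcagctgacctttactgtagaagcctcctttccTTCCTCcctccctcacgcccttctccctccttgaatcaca
Gpnmb, chr6:49036268-49036517, plus strand: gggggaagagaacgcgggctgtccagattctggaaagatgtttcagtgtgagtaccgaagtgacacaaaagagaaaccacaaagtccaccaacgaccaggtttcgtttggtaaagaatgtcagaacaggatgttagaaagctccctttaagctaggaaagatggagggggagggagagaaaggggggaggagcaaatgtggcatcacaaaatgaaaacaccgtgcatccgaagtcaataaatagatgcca
Mrc1, chr2:14229164-14229413, plus strand: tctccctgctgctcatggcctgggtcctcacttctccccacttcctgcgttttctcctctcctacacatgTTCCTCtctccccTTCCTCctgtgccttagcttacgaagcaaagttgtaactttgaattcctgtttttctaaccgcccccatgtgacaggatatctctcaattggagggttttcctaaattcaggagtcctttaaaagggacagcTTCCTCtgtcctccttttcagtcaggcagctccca
Cd163, chr6:124304401-124304650, plus strand: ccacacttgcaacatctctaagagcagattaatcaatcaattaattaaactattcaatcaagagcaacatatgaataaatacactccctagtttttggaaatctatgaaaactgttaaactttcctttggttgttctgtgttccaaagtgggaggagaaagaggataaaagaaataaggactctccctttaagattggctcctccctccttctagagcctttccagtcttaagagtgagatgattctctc
The Trem2 sequence held 1 copy, on the reverse strand with its first base at -40 from the start site, and the Mrc1 sequence held 3, on the reverse strand at -180, -167 and -35. The Gpnmb and Cd163 sequences held none. RefSeq windows of 250 bases before and 50 after the start site were at hand for 29 of the 37 markers, and 15 of these 29 (51.7%) held the 6-base word on either strand, beside 8446 of 27025 genes (31.3%). The 15 were Aif1, Cd53, Cd68, Cd84, Clec7a, Cybb, Fcgr1, Fcgr3, Itgam, Laptm5, Mrc1, Ms4a7, Pf4, Ptprc and Trem2. Values of all of them are given below. The longer word GAGGAAGT, which contains the 6-base word, was held by 2 of the 29, Cd53 and Pf4 (6.90%), beside 997 genes (3.69%). A match is a description of letters and does not show a bound site, and the data hold no measure of binding.

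Most of the markers were higher in Thbs1 transgenic muscle, and no marker passed a test in the other direction. Both transgenic libraries lay above both control libraries for 33 of the 37, beside 38.5% of all genes with at least 10 reads, and the 4 that overlapped were Lyve1, Folr2, Cd163 and Pf4. The ratio of the mean RPKM in transgenic to that in control muscle ran from 0.456 for Lyve1 to 31.6 for Cx3cr1, with a median of 3.68 over the 37. Limma-voom was run on reads recovered from the RPKM values, for genes with at least 10 reads over the 4 libraries, which took in all 37. Genes can also pass that filter through transgenic reads, as Cd52 did with 10 and 19, against 2 and 2 in control muscle. At a Benjamini-Hochberg adjusted p under 0.05, limma-voom called 18 of 37 higher and 0 lower. Among all 15622 genes tested, 4.06% were called higher and 1.06% lower. At an unadjusted p under 0.05, limma-voom had 29 of the 37 higher and 0 lower, beside 18.4% of all genes tested higher and 5.88% lower. The median log2 fold change in that fit was 1.88 over the markers and 0.21 over all genes tested. In bulk tissue, fewer cells of a type and less RNA per cell cannot be told apart, and the same holds for more cells and more RNA per cell.

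**Figure D1:**
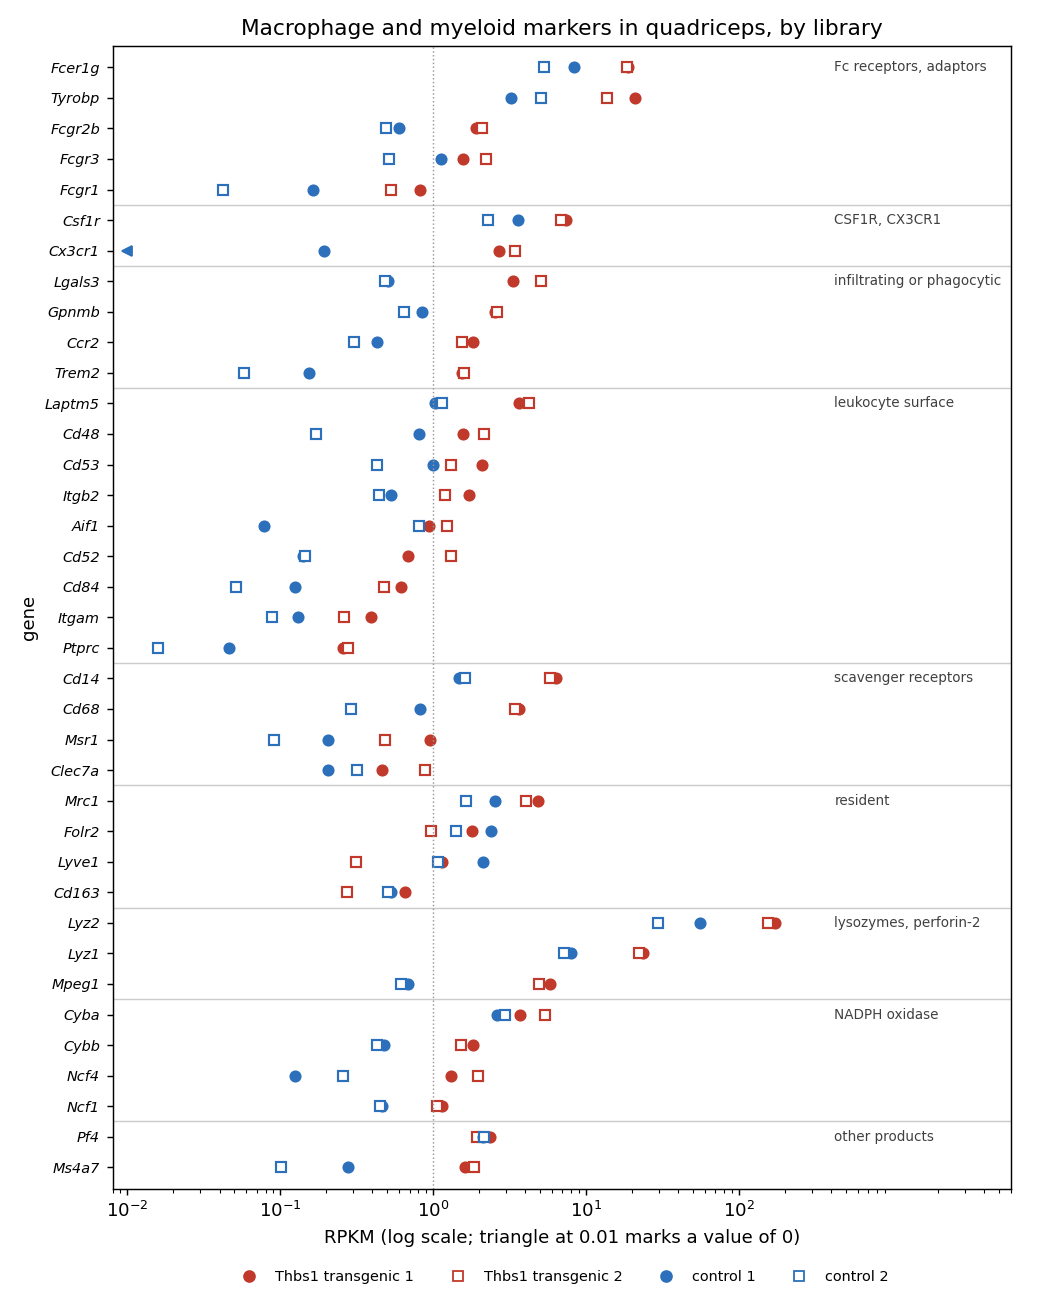
RPKM of each of the 37 markers (rows, grouped by role) in transgenic 1 and 2 (red) and control 1 and 2 (blue), on a log axis, with a triangle at 0.01 for a value of 0 and a dotted line at 1 RPKM. Red symbols lie right of both blue symbols in 33 rows, and the 4 rows where they mix are Lyve1, Folr2, Cd163 and Pf4.

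The test on the deposited values was limma on log2(RPKM + 1), over the 10015 genes that reached 1 RPKM in 2 or more libraries. It could be run for 28 of the 37 markers and called 18 of them higher and 0 lower, beside 6.25% of genes called higher and 1.22% called lower. Of the 28, 15 reached 1 RPKM in the transgenic libraries only, so they entered the test through the group in which they are high, and 11 of those 15 were called (Cd68, Fcgr2b, Trem2, Lgals3, Mpeg1, Cybb, Ncf4, Gpnmb, Cx3cr1, Ccr2 and Ms4a7). The other 13 reached 1 RPKM in at least 1 control library, and 7 of them were called. Limma run on all genes with no filter called 5 of the 37, Cd14, Trem2, Lyz1, Mpeg1 and Cx3cr1. With the filter, limma and limma-voom shared 17 calls, limma alone called Ncf4, and limma-voom alone called Ptprc, which limma did not test. In the authors' deposited table, 26 of the 37 had an adjusted p under 0.1 and a higher transgenic mean, beside 5.55% of genes, and 0 had a lower one, beside 3.64%.

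The calls rested on all 4 libraries. With 1 library left out, which leaves a lone library that is assumed to vary like those of the other group, limma called 14 markers without transgenic 1, 16 without transgenic 2, 10 without control 1 and 0 without control 2. Csf1r and Fcgr2b were lost without transgenic 1 and also without transgenic 2, Cybb and Ccr2 without transgenic 1, and Fcgr2b, Tyrobp, Lgals3, Laptm5, Cybb, Ncf4, Gpnmb and Ccr2 without control 1. Without control 2 the smallest adjusted p of a marker in limma was 0.0739, 22 of the 28 tested had an unadjusted p under 0.05 (1987 of all genes did), and 26 of the 28 had a positive log2 fold change, beside 57.9% of all genes. Limma-voom called 2 markers without transgenic 1 (Mpeg1 and Lgals3), 1 without transgenic 2 (Mpeg1), 0 without control 1 (29 at an unadjusted p under 0.05, beside 22.5% of all genes) and 0 without control 2. Without control 2, 25 of the 37 had an unadjusted limma-voom p under 0.05 (2311 of all genes did), and 34 of the 37 had a positive log2 fold change, beside 59% of all genes. All adjusted p-values below are from the 4 libraries, log2 fold changes are transgenic minus control, and a fold is a ratio of mean RPKM. Counts of genes called by role or list are to be read beside the 6.25% (limma) and 4.06% (limma-voom) of all genes called higher.

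Receptors that keep and recruit the cells were higher. Csf1r encodes the receptor for CSF1 and IL-34, on which macrophages depend for survival. It had 7.34 and 6.86 RPKM in transgenic muscle, against 3.61 and 2.29 RPKM in control muscle. The groups did not overlap, and the 2.41-fold difference was called by limma (log2 fold change 1.06, SE 0.20, adjusted p = 0.0451). This was the call nearest the threshold, and it was lost with a pseudocount of 0.1, with a filter at 0.1 RPKM, and without transgenic 1, transgenic 2 or control 2. Cx3cr1 encodes the fractalkine receptor of monocytes and resident macrophages. It had 259 and 326 reads in transgenic muscle, against 18 reads in control 1 and 0 in control 2, or 2.68 and 3.41 RPKM against 0.193 and 0 RPKM. Its 31.6-fold difference was the largest of the 37 and rests on 18 control reads (limma log2 fold change 1.88, SE 0.17, adjusted p = 0.0118). In limma-voom its log2 fold change was 6.49 with an SE of 1.38. The limma-voom adjusted p of 0.0479 was the largest among the markers that this fit called. Ccr2, the receptor for the monocyte chemoattractant CCL2, had 1.81 and 1.55 RPKM in transgenic muscle, against 0.427 and 0.304 RPKM in control muscle. The groups lay far apart relative to their spread, and the 4.60-fold difference was called by limma (log2 fold change 0.97, SE 0.14, adjusted p = 0.0266).

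Other genes of the same axis included the ligands of CSF1R and the factors that specify myeloid cells. Of 18 genes of the CSF1 axis and of myeloid transcription factors, 16 had enough reads for limma-voom, which called 2 higher and 0 lower, with a median log2 fold change of 0.83. Runx1, a transcription factor needed for blood cell formation, had 1.09 and 1.36 RPKM in transgenic muscle, against 0.172 and 0.0922 RPKM in control muscle (limma-voom log2 fold change 3.26, adjusted p = 0.00697). Csf2rb, the shared beta chain of the GM-CSF and IL-3 receptors, had 1.04 and 0.968 RPKM, against 0.387 and 0.299 RPKM in the controls (limma-voom log2 fold change 1.54, adjusted p = 0.0477). Both genes were separated between the groups. Irf8, a monocyte and dendritic cell transcription factor, was at 1.83 and 1.92 RPKM in transgenic muscle and 0.729 and 0.984 RPKM in control muscle, with a limma-voom adjusted p of 0.0839. Stab1, a scavenger receptor of resident macrophages and sinusoidal endothelium, was at 3.80 and 2.94 RPKM in transgenic muscle and 2.23 and 1.6 RPKM in control muscle, with a limma-voom adjusted p of 0.0929. Spi1, Csf1 and Il34 were chosen after their values were seen. Spi1, which encodes PU.1, had 1.64 and 1.03 RPKM, against 0.383 and 0.222 RPKM in the controls, with a limma-voom adjusted p of 0.105. The ligand gene Csf1 was at 1.21 and 1.1 RPKM, against 0.951 and 0.428 RPKM in the controls, and Il34 at 2.03 and 1.90 RPKM, against 1.4 and 1.62 RPKM. Neither ligand gene was called.

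Fc receptors bind the constant part of antibodies, and their activating forms signal through adaptors that carry an immunoreceptor tyrosine-based activation motif (ITAM). All 5 markers of this role lay above both controls, beside 38.5% of all genes with at least 10 reads, with folds of 2.30 to 6.63. Limma called 3 of the 4 it tested, beside 6.25% of all genes. Fcer1g, the common gamma chain adaptor, had 18.7 and 18.6 RPKM in transgenic muscle, against 8.28 and 5.30 RPKM in control muscle. Its transgenic values differed by less than 1 RPKM from each other while the controls were further apart, and limma called the 2.74-fold difference (log2 fold change 1.36, SE 0.22, adjusted p = 0.0319). Tyrobp encodes DAP12, the adaptor through which TREM2 signals. It had 21 and 13.7 RPKM in transgenic muscle, against 3.22 and 5.06 RPKM in control muscle. The 2 transgenic values were further apart than the controls but both above them (limma log2 fold change 1.83, SE 0.28, adjusted p = 0.0286). Among the receptors, the inhibitory Fcgr2b had 1.92 and 2.09 RPKM, against 0.594 and 0.492 RPKM in the controls, and was called (limma log2 fold change 0.96, SE 0.14, adjusted p = 0.0243). The activating Fcgr3 had 1.57 and 2.20 RPKM, against 1.12 and 0.517 RPKM, and was not called (limma adjusted p = 0.126). The high-affinity IgG receptor Fcgr1 was under 1 RPKM in all 4 libraries, at 0.825 and 0.530 RPKM in transgenic muscle and 0.163 and 0.0419 RPKM in control muscle, with a limma-voom adjusted p of 0.101.

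Fcgr2b (chr1:170958617-170976547) and Fcgr3 (chr1:171051174-171064935) are neighbours on GRCm38 and share sequence. Of the 50-base words of Fcgr3 transcripts, 9.58% also occur in Fcgr2b, so a part of their reads could be assigned to either. The ratio of Fcgr2b to Fcgr3 in RPKM was 1.22 and 0.950 in transgenic muscle and 0.529 and 0.952 in control muscle, and the groups overlapped. Fcer1g (chr1:171229572-171234365), Cd48 (chr1:171682009-171705258) and Cd84 (chr1:171839697-171890718) lie in the same stretch of chromosome 1.

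Downstream of these adaptors, 14 genes of ITAM and TREM2 signalling were listed. Limma-voom tested 13 of them and called 2 higher and 0 lower, with a median log2 fold change of 1.42. Both were genes of inhibitory signalling, but 12 of the 13 tested lay above both controls, beside 38.5% of all genes with at least 10 reads. At an unadjusted limma-voom p under 0.05, 8 were higher and 0 lower, beside 18.4% and 5.88% of all genes tested. Sirpa, the receptor for the CD47 signal that restrains phagocytosis, had 1.70 and 1.73 RPKM in transgenic muscle, against 0.773 and 0.528 RPKM in control muscle (limma-voom log2 fold change 1.42, adjusted p = 0.027). Ptpn6, the phosphatase SHP-1, had 0.804 and 0.802 RPKM, against 0.187 and 0.186 RPKM (limma-voom log2 fold change 2.09, adjusted p = 0.0303). In both genes the groups did not overlap. Vav1, an exchange factor downstream of these receptors, was at 0.194 and 0.192 RPKM in transgenic muscle and 0.0366 and 0.0108 RPKM in control muscle, with a limma-voom adjusted p of 0.0545, and Lat2, a membrane adaptor, had an adjusted p of 0.0733.

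The 4 infiltrating or phagocytic markers were each called higher. All 4 entered the limma test through their transgenic values only, so their limma calls are not comparable with those of the resident markers. In limma-voom, whose filter is on reads summed over all 4 libraries, their adjusted p-values ran from 0.0144 to 0.029. Trem2, a lipid-sensing receptor of macrophages on chr17:48346401-48354147, had 113 and 115 reads in transgenic muscle, against 11 and 4 reads in control muscle. That is 1.53 and 1.58 RPKM in transgenic muscle, against 0.154 and 0.0578 RPKM in control muscle. The transgenic libraries were nearly equal and the 14.7-fold difference was called by limma (log2 fold change 1.21, SE 0.14, adjusted p = 0.0158). Because 1 is added before the logarithm, this log2 fold change understates the ratio, and limma-voom gave 3.92 with an SE of 0.69 (adjusted p = 0.029). Lgals3 (chr14:47367751-47386160) encodes galectin-3, a lectin recruited to damaged lysosomes. It had 3.35 and 5.06 RPKM in transgenic muscle, against 0.506 and 0.485 RPKM in control muscle. The controls were close together and the transgenic libraries 8.47-fold higher on average (limma log2 fold change 1.78, SE 0.20, adjusted p = 0.0157). Gpnmb (chr6:49036546-49070929), a lysosomal and surface glycoprotein of phagocytes, had 2.54 and 2.60 RPKM, against 0.840 and 0.644 RPKM in the controls, and was called at 3.47-fold (limma log2 fold change 1.04, SE 0.14, adjusted p = 0.0223). Ccr2, given above, is the fourth of the set. In reads, Trem2 stood at 0.764 and 0.833 of Cd68 in transgenic muscle and at 0.344 and 0.364 of Cd68 in control muscle.

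Of the 4 resident markers, limma called 0 of 3 tested and limma-voom 0 of 4, and only Mrc1 had an unadjusted limma-voom p under 0.05. Lyve1, Folr2 and Cd163 were not called under any alternative run. Lyve1, the hyaluronan receptor of perivascular macrophages and of lymphatic endothelium, had 82 and 22 reads in transgenic muscle, against 147 and 72 reads in control muscle. That is 1.15 and 0.311 RPKM in transgenic muscle and 2.13 and 1.07 RPKM in control muscle. Transgenic 1 lay between the controls, the ratio was 0.456, and limma gave a log2 fold change of -0.60 with an SE of 0.31 (adjusted p = 0.283). Folr2, the folate receptor beta, had 1.79 and 0.960 RPKM in transgenic muscle, against 2.38 and 1.42 RPKM in control muscle. Its groups overlapped as well (limma log2 fold change -0.29, SE 0.25, adjusted p = 0.513). Cd163, the receptor that takes up haemoglobin bound to haptoglobin, had 0.652 and 0.272 RPKM, against 0.527 and 0.503 RPKM in the controls. Here the controls lay within the range of the transgenic libraries (limma-voom log2 fold change -0.29, SE 0.42, adjusted p = 0.716). These p-values do not show that the levels were equal.

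Mrc1, which encodes the mannose receptor and lies on chr2:14229392-14332057, stood apart from the other resident markers. It had 4.88 and 4.07 RPKM in transgenic muscle, against 2.53 and 1.63 RPKM in control muscle. Both transgenic libraries were higher, but the 2.15-fold difference missed the threshold in limma (log2 fold change 0.84, SE 0.20, adjusted p = 0.0679). It passed when Thbs1 was left out of the library sizes and in limma-voom with median-of-ratios factors, and limma-voom on the library totals gave an adjusted p of 0.0536. In the authors' deposited table its adjusted p was 0.0186.

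**Figure D2:**
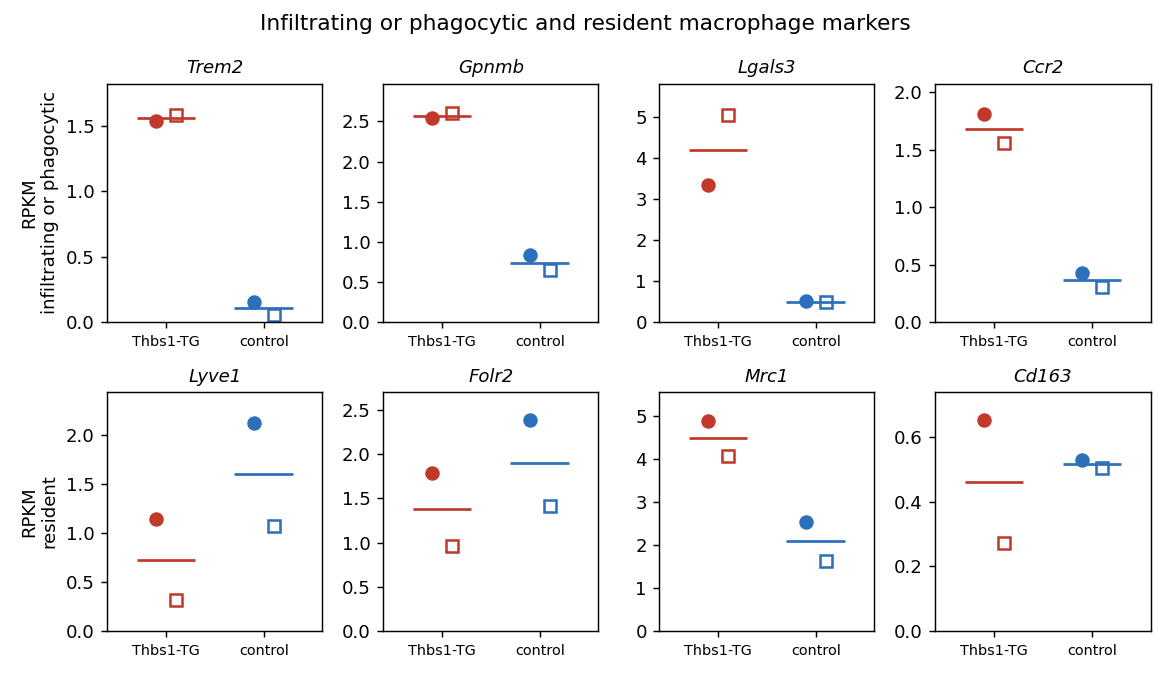
RPKM of 4 infiltrating or phagocytic markers (top) and 4 resident markers (bottom) in Thbs1 transgenic (red, left) and control (blue, right) libraries; filled circles are replicate 1, open squares replicate 2, and lines the mean of 2. The top row shows no overlap between groups, while in the bottom row only Mrc1 is separated, at 4.88 and 4.07 RPKM against 2.53 and 1.63 RPKM.

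Set side by side in RPKM, the phagocytic markers summed to more than the resident markers in both transgenic libraries and to less in both controls. In reads, which are not scaled by length, this order did not hold in transgenic 1, with 860 phagocytic and 1302 resident reads. Transgenic 2 had 984 and 923 reads, and both controls had fewer phagocytic than resident reads. The 4 infiltrating or phagocytic markers summed to 9.23 and 10.8 RPKM in transgenic muscle, against 1.93 and 1.49 RPKM in control muscle. The 4 resident markers summed to 8.46 and 5.61 RPKM in transgenic muscle and 7.57 and 4.62 RPKM in control muscle, and these ranges overlapped. Sums of phagocytic over resident markers were thus 1.09 and 1.92 in transgenic muscle and 0.255 and 0.323 in control muscle. Without Mrc1, the resident sum was 3.59 and 1.54 RPKM in transgenic muscle and 5.04 and 2.99 RPKM in control muscle. On the log2(RPKM + 1) scale, the mean of the phagocytic markers minus the mean of the resident markers was 0.23 and 0.78 in transgenic muscle and -0.91 and -0.64 in control muscle. The difference between groups in that quantity was 1.28, with a pooled SD of 0.307, and it carries no test because the genes were picked with results of these data known. The length behind the RPKM values was 2.35 times the exon length for Cd163 and 0.605 times for Trem2, each relative to the median gene, so the RPKM of Cd163 is low and that of Trem2 high when set against other genes. For a single gene, the ratio between groups does not depend on that length. Sums over genes, their ratios and the difference on the log2(RPKM + 1) scale do depend on it.

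Scavenger and pattern receptors bind debris, modified lipids and microbial surfaces. All 4 lay above both controls, beside 38.5% of all genes with at least 10 reads. Limma called the 2 it tested, beside 6.25% of all genes. Cd68, a lysosomal glycoprotein and general macrophage marker, had 3.66 and 3.45 RPKM in transgenic muscle, against 0.818 and 0.290 RPKM in control muscle. The difference was 6.42-fold, with means of 3.55 ± 0.145 RPKM in transgenic and 0.554 ± 0.374 RPKM in control muscle (SD, n = 2 each; limma log2 fold change 1.57, SE 0.20, adjusted p = 0.0203). Cd14, the co-receptor for lipopolysaccharide, had 6.31 and 5.84 RPKM, against 1.47 and 1.61 RPKM in the controls. Replicates were close in both groups (limma log2 fold change 1.48, SE 0.14, adjusted p = 0.012). Msr1, scavenger receptor A, and Clec7a, the beta-glucan receptor dectin-1, stayed under 1 RPKM in every library. Msr1 had 0.950 and 0.481 RPKM, against 0.205 and 0.0914 RPKM in the controls, with a limma-voom adjusted p of 0.0926. Clec7a had 0.463 and 0.887 RPKM, against 0.205 and 0.317 RPKM, with a limma-voom adjusted p of 0.262.

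The lysozymes and the pore-forming protein perforin-2 (Mpeg1), which act on bacteria inside phagocytes, were all called by both fits and by limma under each alternative that kept all 4 libraries and the filter. Lyz2, the macrophage lysozyme, had 172 and 155 RPKM in transgenic muscle, against 55.4 and 29.4 RPKM in control muscle. It alone made up 55.8% and 54.8% of the summed RPKM of the 37 markers in transgenic muscle and 53.6% and 42.7% in control muscle, so any sum over the list follows Lyz2. Its 3.85-fold difference was called by limma (log2 fold change 1.98, SE 0.32, adjusted p = 0.0311). Lyz1 had 23.5 and 22.1 RPKM, against 7.91 and 7.13 RPKM in the controls, a 3.03-fold difference (limma log2 fold change 1.48, SE 0.15, adjusted p = 0.0127). The genes are neighbours, at chr10:117277331-117282321 for Lyz2 and chr10:117287797-117292868 for Lyz1, and 16.1% of the 50-base words of Lyz1 also occur in Lyz2, so a part of the Lyz1 reads may come from Lyz2. The ratio of Lyz2 to Lyz1 was 7.32 and 6.99 in transgenic muscle and 7.0 and 4.13 in control muscle. Mpeg1 (chr19:12460779-12465283) had 5.81 and 4.88 RPKM in transgenic muscle, against 0.682 and 0.613 RPKM in control muscle. It shared 0 50-base words with another gene and had the smallest adjusted p of the 37, both in limma (log2 fold change 1.94, SE 0.15, adjusted p = 0.0078) and in limma-voom (log2 fold change 3.03, SE 0.27, adjusted p = 0.00454).

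**Figure D3:**
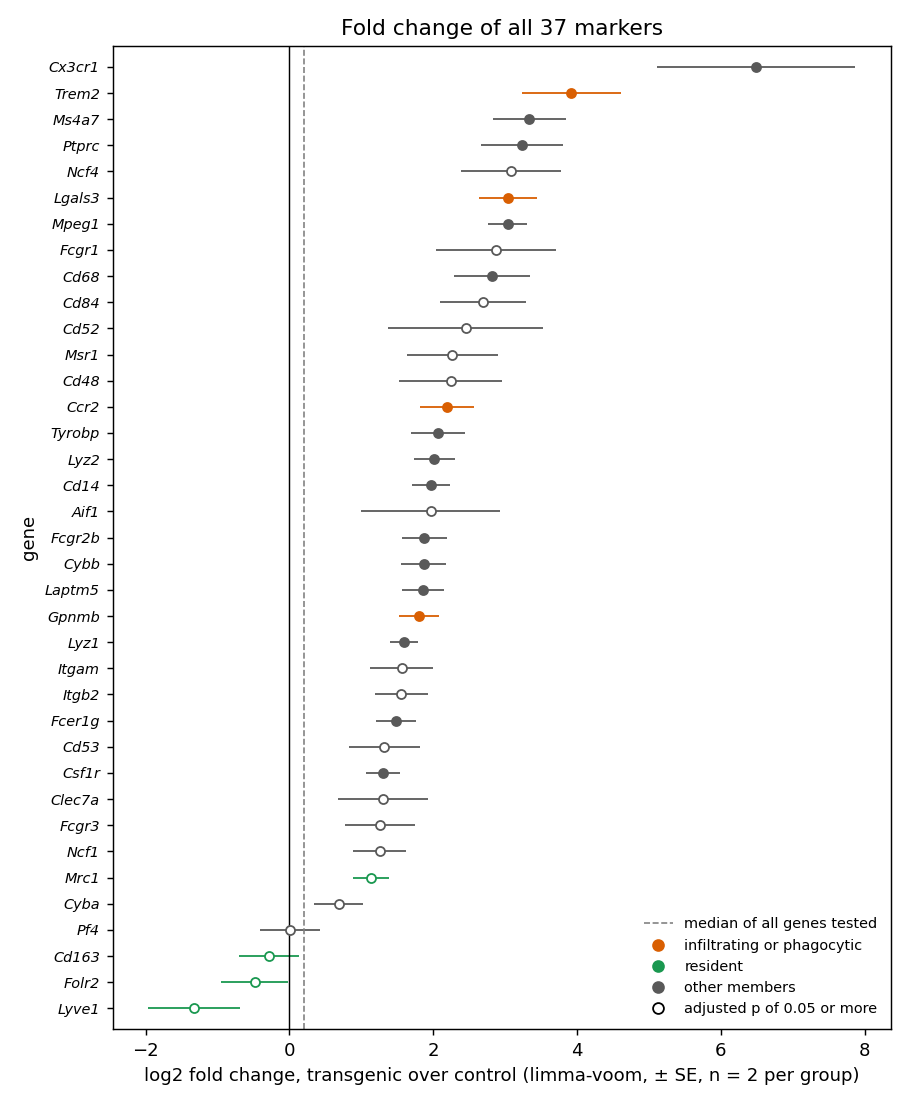
Log2 fold change, transgenic over control, of all 37 markers from limma-voom on recovered reads, with SE bars (n = 2 per group); filled symbols have an adjusted p under 0.05, orange marks infiltrating or phagocytic and green resident markers, and the dashed line is the median of all genes at 0.21. The 4 orange symbols are filled at 1.80 to 3.92, while the 4 green symbols are open, at -1.33 for Lyve1 to 1.13 for Mrc1.

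The phagocyte NADPH oxidase makes superoxide in the phagosome, from a membrane pair (Cybb and Cyba) and cytosolic subunits (Ncf1, Ncf4 and others). All 4 markers lay above both controls, beside 38.5% of all genes with at least 10 reads. Of the 4, limma called Cybb and Ncf4, beside 6.25% of all genes, and both entered its test through transgenic values only. Cybb, the catalytic subunit, had 1.81 and 1.52 RPKM in transgenic muscle, against 0.479 and 0.427 RPKM in control muscle (limma log2 fold change 0.87, SE 0.14, adjusted p = 0.0313; limma-voom adjusted p = 0.0252). Ncf4, the p40 subunit, had 1.31 and 1.96 RPKM, against 0.125 and 0.257 RPKM in the controls (limma log2 fold change 1.14, SE 0.18, adjusted p = 0.0302). The Ncf4 call did not hold in limma-voom (adjusted p = 0.0564). Ncf1, the p47 subunit, had 1.14 and 1.06 RPKM, against 0.463 and 0.450 RPKM (limma adjusted p = 0.0758). Cyba, which many other cell types also express, had the smallest separated difference, with 3.68 and 5.42 RPKM in transgenic muscle and 2.62 and 2.93 RPKM in control muscle, a ratio of 1.64 (limma adjusted p = 0.156).

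Of 7 further genes of NADPH oxidases and their partners, limma-voom tested 7 and called 2 higher and 0 lower, and neither is confined to phagocytes. Nox4, an oxidase catalytic subunit of fibroblasts and vascular cells, had 3.23 and 3.56 RPKM, against 0.955 and 0.456 RPKM in the controls (limma-voom log2 fold change 2.35, adjusted p = 0.0208). Cyb5r3, a widely expressed reductase, had 32.1 and 34.3 RPKM, against 13.0 and 7.32 RPKM (limma-voom log2 fold change 1.76, adjusted p = 0.0204). The leukocyte GTPase Rac2 had 1.34 and 1.63 RPKM, against 0.428 and 0.573 RPKM, with a limma-voom adjusted p of 0.0673.

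General leukocyte genes are shared by monocytes, macrophages and lymphocytes. All 9 lay above both controls, beside 38.5% of all genes with at least 10 reads. Their folds were 2.38 to 8.57, but most were near or under 1 RPKM. Limma tested 4 and called 1, beside 6.25% of all genes, and limma-voom tested 9 and called 2, beside 4.06%. Laptm5, a lysosomal membrane protein of blood cells, had 3.61 and 4.26 RPKM in transgenic muscle, against 1.02 and 1.13 RPKM in control muscle (limma log2 fold change 1.25, SE 0.15, adjusted p = 0.0174). Ptprc, the leukocyte common antigen CD45, had 138 and 146 reads in transgenic muscle, against 24 and 8 reads in control muscle. Its 8.57-fold difference was called by limma-voom (log2 fold change 3.23, SE 0.57, adjusted p = 0.0298). Itgb2, the integrin beta2 chain, had 1.71 and 1.19 RPKM, against 0.528 and 0.441 RPKM in the controls (limma adjusted p = 0.0641), and its partner Itgam, the CD11b chain, had 0.392 and 0.260 RPKM, against 0.130 and 0.0881 RPKM (limma-voom adjusted p = 0.091). Itgam values are uncertain, because 66.3% of its 50-base words also occur in the overlapping gene model Gm49368, and its RPKM is low because the length behind it was 2.64 times the exon length relative to the median gene.

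The other members of that role were not called. Cd48, a ligand of lymphocyte receptors, had 1.58 and 2.16 RPKM in transgenic muscle and 0.801 and 0.171 RPKM in control muscle (limma adjusted p = 0.08). The homotypic adhesion receptor Cd84 had 0.618 and 0.478 RPKM in transgenic muscle and 0.125 and 0.0517 RPKM in control muscle (limma-voom adjusted p = 0.0541). The tetraspanin Cd53 had 2.09 and 1.31 RPKM in transgenic muscle and 0.998 and 0.429 RPKM in control muscle (limma adjusted p = 0.15). In these 3 genes both transgenic libraries lay above both controls. Cd52, a small surface glycoprotein of leukocytes, rests on 10 and 19 reads in transgenic and 2 and 2 reads in control muscle (limma-voom adjusted p = 0.223). Aif1, the calcium-binding protein IBA1, had 0.943 and 1.22 RPKM in transgenic muscle, against 0.0781 and 0.804 RPKM in control muscle (limma-voom adjusted p = 0.271), where the controls differed more from each other than the groups did.

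Of the last pair, Ms4a7, a tetraspan protein of macrophages, had 1.62 and 1.86 RPKM in transgenic muscle, against 0.276 and 0.10 RPKM in control muscle. Its 9.25-fold difference was called by limma (log2 fold change 1.21, SE 0.15, adjusted p = 0.0193). Pf4 (chr5:90772435-90773383), platelet factor 4, which platelets and some resident macrophages express, had 2.36 and 1.94 RPKM in transgenic muscle, against 2.10 and 2.16 RPKM in control muscle. The controls lay within the transgenic range, with a limma log2 fold change of 0.01 and an SE of 0.14 (adjusted p = 0.986), and the sign of its fold change turned with median-of-ratios scaling in limma-voom.

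Gene lists of related programmes were read in the same way, in limma-voom and beside the 4.06% of all genes called higher. Among 15 genes of lipid-associated macrophages, 14 were tested, 5 were called higher and 0 lower, with a median log2 fold change of 1.28. Apoe, which carries lipids and is also made by cells other than macrophages, had 96.6 and 78.9 RPKM in transgenic muscle, against 20.4 and 21.9 RPKM in control muscle (limma-voom log2 fold change 2.05, adjusted p = 0.00418). Spp1, which encodes osteopontin, had 1.33 and 0.818 RPKM, against 0.0348 and 0.0538 RPKM (limma-voom log2 fold change 4.53, adjusted p = 0.0251). Cd63, a tetraspanin of late endosomes, and Lgals1, the lectin galectin-1, were also called, at adjusted p = 0.012 and 0.017 in limma-voom, and both are expressed far beyond macrophages. Of 12 markers of macrophage activation states, 9 were tested and 0 were called in either direction by limma-voom or limma, with 3 higher and 1 lower at an unadjusted limma-voom p under 0.05. The alternative-activation lectins Mgl2 and Clec10a were higher in both transgenic libraries than in both controls, with limma-voom adjusted p-values of 0.0668 and 0.0709. Il1b was also higher, with 21 and 26 reads in transgenic and 2 and 0 reads in control muscle (limma-voom adjusted p = 0.11). It passed the read filter through transgenic reads. Retnla, an alternative-activation product that adipocytes also make, had 15.1 and 3.97 RPKM in transgenic muscle, against 26.2 and 30.0 RPKM in control muscle (limma-voom adjusted p = 0.086).

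Markers of other cells that whole muscle holds were also read. For T, B and NK cells the summed level was 2.12 and 3.10 RPKM in transgenic and 0.736 and 0.400 RPKM in control muscle, and limma-voom called 1 of 11 tested genes higher. That gene was Cd4, with 34 and 33 reads in transgenic muscle and 0 and 0 in control muscle (limma-voom adjusted p = 0.0421). It passed the read filter through transgenic reads only. The T cell receptor chain genes Cd3e and Cd3g had 11 to 14 reads in each transgenic library and 0 in both controls but were not called (limma-voom adjusted p = 0.0911 and 0.0924), and the B cell gene Ms4a1 had 0 in all 4 libraries. Of the 11 genes tested, 7 lay above both controls and 1 below, and 10 had a positive limma-voom log2 fold change. The exception was Cd8b1, chosen after its values were seen, with 6 and 7 reads in transgenic and 14 and 10 reads in control muscle. The part of these cells in the values of Ptprc, Cd48, Cd52 and Cd53 was not tested. For neutrophils, the granule genes Camp, Ngp and Elane had 0 reads in all libraries, S100a8 had 0 and 17 reads in transgenic and 0 and 2 in control muscle, and limma-voom called 0 of 3 tested genes, with 0 at an unadjusted p under 0.05 and 0 calls by limma. Dendritic cell genes were called in 0 of 8 tested by limma-voom (2 higher at an unadjusted p under 0.05), with summed levels of 2.16 and 2.07 RPKM in transgenic and 1.37 and 1.17 RPKM in control muscle.

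Genes of dividing cells had a median log2 fold change of 2.10 over 10 genes in limma-voom, with 1 called. It was Top2a, a topoisomerase that untangles chromosomes, at 0.783 and 0.618 RPKM in transgenic and 0.184 and 0.0596 RPKM in control muscle (limma-voom log2 fold change 2.68, adjusted p = 0.0453). Which cells divide cannot be read from whole tissue. Lyve1 is shared with lymphatic endothelium, whose 6 genes summed to 24.1 and 17.3 RPKM in transgenic and 21.5 and 10.7 RPKM in control muscle. Limma-voom called 1 of these 6 higher, Pdpn, which fibroblasts and activated macrophages also express, and 0 lower. Pdpn had 7.62 and 9.80 RPKM in transgenic and 2.84 and 1.32 RPKM in control muscle, which raised the transgenic sums. It alone of the 6 had a positive log2 fold change, and the list median in limma-voom was -0.30. Mmrn1, a lymphatic marker, was at 0.142 and 0.0641 RPKM in transgenic and 0.343 and 0.231 RPKM in control muscle (limma-voom adjusted p = 0.121), and the part of lymphatic endothelium in the values of Lyve1 was not tested.

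**Figure D4:**
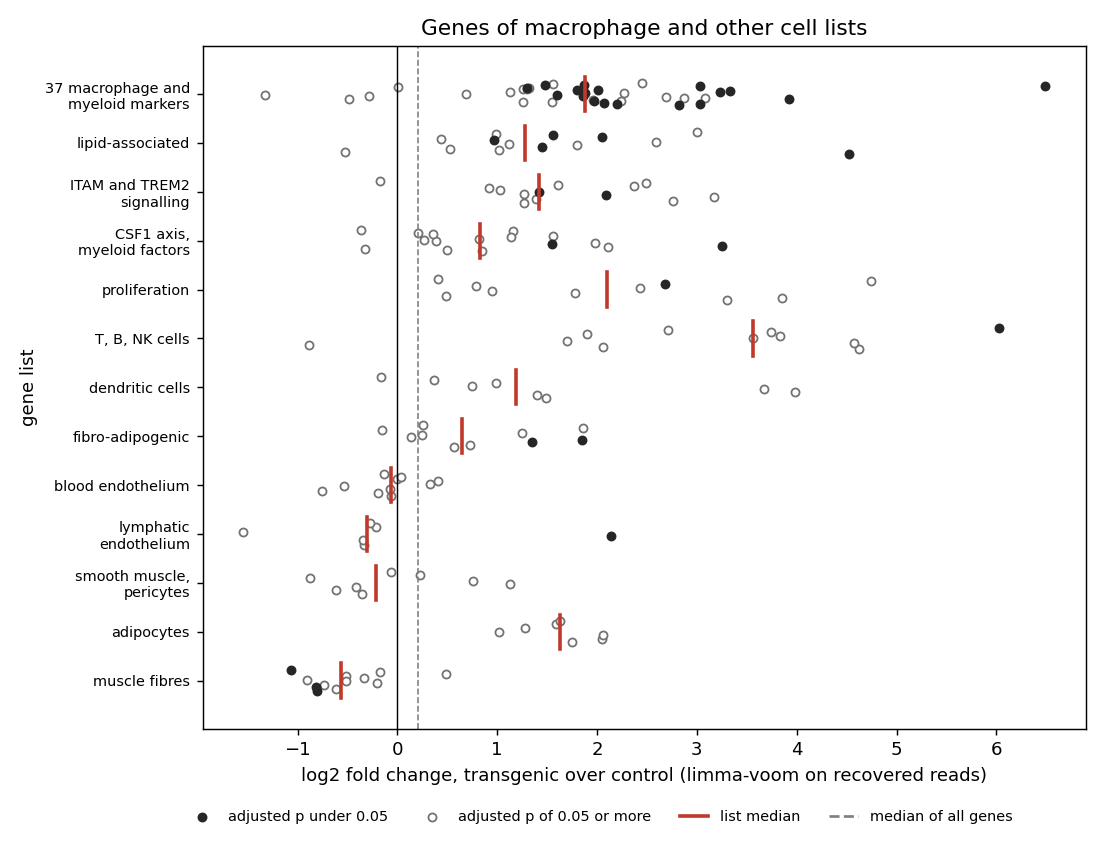
Log2 fold change, transgenic over control, from limma-voom for the genes of 13 lists (rows; each symbol a gene, filled where the adjusted p is under 0.05, red line the list median, dashed line the median of all genes at 0.21). The 37 markers have a median of 1.88, T, B and NK cell genes one of 3.56 on few reads, blood endothelium -0.07 and muscle fibre genes -0.56.

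Fibro-adipogenic cells, the connective tissue cells of muscle, had 2 of 10 genes called higher and 0 lower by limma-voom. Among them was Lum, the proteoglycan lumican, with 42.5 and 36.1 RPKM in transgenic and 13.7 and 8.62 RPKM in control muscle. Satellite cells, the muscle progenitors, had 3 of 7 genes called higher and 0 lower by limma-voom, and 3 of 4 higher by limma. Their median limma-voom log2 fold change was 0.44, with 4 of the 7 above both controls and 2 below. The 3 called genes were Itga7, Chodl and Vcam1. Pax7 was among those below, with 14 and 15 reads in transgenic and 32 and 31 reads in control muscle (limma-voom adjusted p = 0.246). Blood endothelial genes were called in 0 of 10 in either direction by limma-voom and limma, with 0 at an unadjusted limma-voom p under 0.05 and a median log2 fold change of -0.07. Muscle fibre genes were called lower in 3 of 12 by limma-voom, beside 1.06% of all genes, and in 0 of 12 by limma (9 lower at an unadjusted limma-voom p under 0.05). One of the 3 was Ckm, the muscle creatine kinase, with 4389 and 4345 RPKM in transgenic and 7607 and 7662 RPKM in control muscle (limma-voom log2 fold change -0.81, adjusted p = 0.0242). The defining fibre gene was thus abundant in all 4 libraries, as the tissue label says. Adipocyte genes were high in transgenic 1 alone, with summed levels of 941 and 104 RPKM in transgenic and 119 and 144 RPKM in control muscle. The part of these other cell types in the values of the 37 markers was not tested.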

How the data were processed

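RNA from quadriceps was measured in 4 libraries, 2 per group, grouped by sample title. bcl2fastq, TopHat, edgeR and the build mm10 are named in the submitters' processing notes; versions, strandedness and the tool behind the deposited p-values are not given in the sources used here. The authors deposited RPKM per library, group base means that are signal values (reads over size factors), and a p-value and adjusted p-value per gene. The deposited RPKM and base means together fix the reads behind each value. All recovered values (100%) were whole within 0.001 of a read.

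The test was limma (version 3.58.1, R 4.3.3, trended variance) on log2(RPKM + 1), for genes reaching 1 RPKM in 2 or more libraries, two-sided, without covariates, with Benjamini-Hochberg adjustment and a threshold of 0.05. A log2 fold change on this scale understates changes of low genes. Limma-voom on recovered reads, for genes with at least 10 reads in total, was an alternative. Reads were also simulated for this comparison, with the same fixed dispersion of 0.05 for every gene. Only genes with a mean of at least 1 RPKM were raised or lowered. On these reads, limma (9815 genes tested) called 11 of 40 genes raised 2-fold, 38 of 40 raised 4-fold and 16 of 9621 unchanged. Limma-voom (15590 genes tested) called 14 of 40, 39 of 40 and 8 of 15390. These figures do not cover changed genes with a mean under 1 RPKM or other dispersions. Other alternatives to the test were a pseudocount of 0.1, no filter or one at 0.1 RPKM, and median-of-ratios scaling. The rest were leaving out Thbs1 or each library, a threshold of 0.1 and a replicate block. Limma-voom with median-of-ratios factors and limma-voom without each library were chosen after seeing the data. The labels do not say whether replicate numbers pair the libraries.

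The members and gene lists were chosen with earlier results of these data known. All 37 members may be named, and from other lists up to 4 genes with the smallest p, all genes of lists with 5 or fewer tested, and defining markers at 0, and some genes of those lists are not reported here. Gene positions are from GENCODE M21 and upstream sequences from RefSeq, both on GRCm38. Exons of Cd52, Csf1r, Cx3cr1, Fcgr2b, Folr2, Itgam and Ncf1 overlap another gene model, and without strand their reads could belong to either. Tables and figures were made in Python 3.11.15 with pandas 2.3.3, numpy 2.4.6 and matplotlib 3.10.9. Depth limits genes of few reads: 3 and 7 of the 37 markers had under 10 reads in control 1 and control 2.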

Additional observations from a re-analysis of the deposited data

How the results depend on the processing

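Of 10015 genes tested by limma, 748 changed (626 higher and 122 lower in transgenic muscle). The count was 146 with no filter, 1561 without Thbs1 in the library sizes, 1705 at a threshold of 0.1, and 1 to 651 with 1 library left out, the lowest without control 2. Median-of-ratios scaling gave 748 calls split as 501 higher and 247 lower, limma-voom 801, and limma-voom with median-of-ratios factors 1057 (601 higher and 456 lower). The median log2 fold change of all genes was 0.10 in limma, -0.04 with median-of-ratios scaling and 0.26 without Thbs1, so about that much of each marker's difference depends on the scaling.

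The 18 markers called became 5 with no filter (Cd14, Trem2, Lyz1, Mpeg1 and Cx3cr1) and 0 to 16 with 1 library left out. Limma-voom with 1 library left out called 0 to 2 markers; it called 90 and 168 genes without transgenic 1 and 2, and 1 gene each without control 1 and control 2. Limma-voom with median-of-ratios factors called 20 of the 37, against 18 in limma-voom on library totals; the added calls were Mrc1 and Cd84. Without Thbs1, or at the threshold of 0.1, 22 were called, with Mrc1, Itgb2, Cd48 and Ncf1 added. No called marker changed direction under any alternative run. The difference between phagocytic and resident markers, 1.28 on the log2(RPKM + 1) scale, was 2.56 with a pseudocount of 0.1 and 1.0 to 1.55 with 1 library left out. Where a value moved, the cause was not tested.

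With a replicate block, limma called 561 genes and 17 markers, losing Tyrobp. Same-numbered libraries deviated from their group means with a correlation of 0.0742 over genes. With 2 libraries per group, this value cannot show whether same-numbered libraries were prepared together.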
